A study of Sus scrofa with 10 samples.

Results

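The adenylyl cyclase family of the pig, ADCY1 to ADCY10, was followed in the ovaries of gilts given recombinant porcine follicle-stimulating hormone (rpFSH) or saline. The members were the protein-coding loci that carry these 10 gene symbols, and each symbol was found in 1 locus, giving 10 of the 19972 protein-coding loci and of the 43499 loci of all kinds in the deposited table. The family was chosen by the fold change and P of ADCY8, which had passed the limits for a difference between the groups in these same libraries. The difference of ADCY8 is therefore described without a test, and tests of a group difference are given for the members that did not lead to the choice.

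Adenylyl cyclases convert ATP into cyclic AMP (cAMP), the second messenger that the FSH receptor of granulosa cells raises through the stimulatory G protein. The membrane-bound members differ in how other signals act on them: ADCY1, ADCY3 and ADCY8 respond to calcium and calmodulin, ADCY5 and ADCY6 are inhibited by calcium, and ADCY2, ADCY4 and ADCY7 can be stimulated by G protein beta and gamma subunits. ADCY9 is weakly sensitive to forskolin, and ADCY10 is the soluble enzyme that responds to bicarbonate. Within cells, cAMP acts on protein kinase A and other effectors and is removed by phosphodiesterases (PDEs).

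Ovaries of 10 gilts were sequenced with 1 library per pig, 5 controls and 5 of the rpFSH treatment group. All 10 gilts had been fed altrenogest, an oral progestin that holds back oestrus, for 18 days, 20 mg daily, starting at an age of 210 days. In the rpFSH treatment group 1000 IU of rpFSH was injected 2 days after the last altrenogest, and in the control group saline was given. At an age of 234 days the ovaries were taken out and freed of the follicles on the surface, so the libraries hold the remaining ovary and not the large follicles. The methods describe rRNA removal and a HiSeq instrument, whereas NovaSeq sequencing of poly(A) RNA is given in the labels, and the extraction text of the labels speaks of an adipose type although every sample is labelled as ovary.

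For each pig and locus the table gives a read count and an FPKM, which is the number of fragments scaled to transcript length and to the mapped fragments of the library. Total counts were between 65166187 and 75114003 in the controls and between 64873797 and 74656992 in the rpFSH treatment group. Markers of the ovary were present in every library, with summed FPKM of the granulosa list between 15.2 and 192 and of the oocyte list between 3.75 and 17.9. Of the 10 marker lists, 8 (granulosa, theca, luteal, oocyte, smooth muscle, endothelial, leukocyte and neural) had 0 called genes. In the stromal list 1 of the 6 tested genes, LUM, was called as lower, at -1.51 on the log2 scale (edgeR, adjusted p = 0.981). The other 5 stromal genes had a log2 fold change above 0, and the median of the list was 0.18. All 6 tested genes of the ciliated epithelium list were called as lower in the rpFSH treatment group, against 2.58% of all tested loci. The adjusted p of each was 0.981 (edgeR). The summed FPKM of the list was 8.35 to 103 in the controls and 3.29 to 6.59 in the rpFSH pigs, and FOXJ1 and RSPH1 had a count of 0 in some pigs. Beside FOXJ1, DNAH5 and RSPH1 the list holds MAL2, EPCAM and OVGP1, which are not confined to ciliated cells. The OVGP1 locus also carries WDR77, so the sum is not one of ciliated cells alone. Some libraries stood apart. Control 2, rpFSH 1 and rpFSH 4 had luteal sums of 2781, 1484 and 362 FPKM against 18.6 to 63.2 in the other pigs, control 5 had a smooth muscle sum of 2194 against 66.2 to 499.9, and controls 2 and 5 had the highest ciliated epithelium sums. Values without these pigs are given beside the members and the pathway genes with a P under 0.05.

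The cyclases of this tissue spanned a wide range of FPKM. FPKM is scaled to the assembled transcripts, and the counts behind it differed between members. In control 4 ADCY9 had 9767 counts at 2.61 FPKM, and ADCY5 had 1458 counts at 3.63 FPKM. The order below is thus one of FPKM and may not be that of the cyclase mRNA. The ADCY6 locus was the highest, with a mean of 6.54 FPKM over the 10 pigs, and made up 28.3% of the summed family FPKM. ADCY3 followed with 4.14, ADCY5 with 3.05, ADCY9 with 2.99 and ADCY2 with 2.69 FPKM. The ADCY4 locus was at 1.99 and ADCY7 at 1.30 FPKM. The remaining members were far lower, with ADCY8 at 0.203, ADCY1 at 0.106 and ADCY10 at 0.0929 FPKM, so ADCY8 made up 0.878% of the summed family FPKM.

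**Figure D1:**
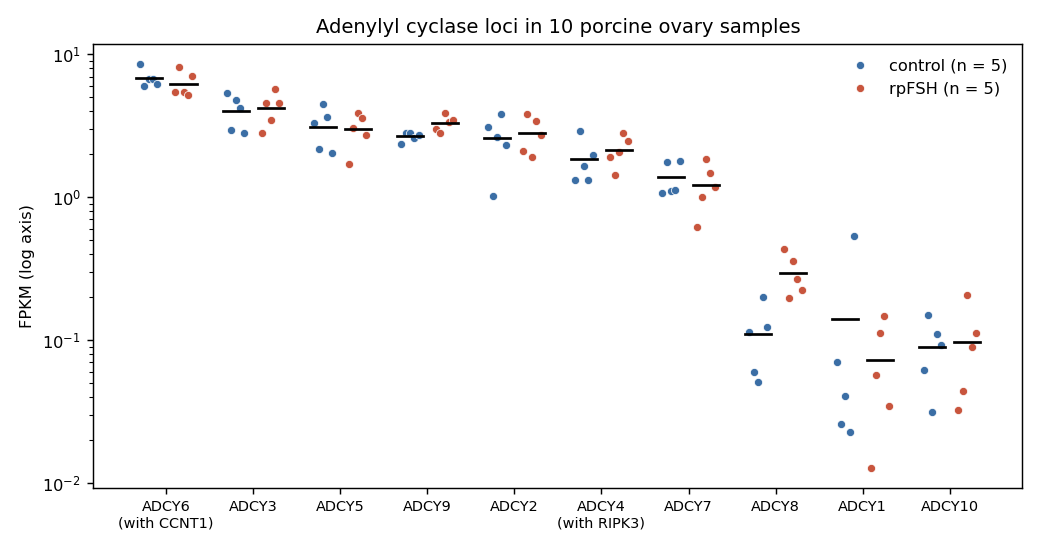
FPKM of the 10 adenylyl cyclase loci on a log axis, 1 point per pig, for the control group (blue, n = 5) and the rpFSH treatment group (red, n = 5), with black lines for the group means. The loci run from the ADCY6 locus, between 5.22 and 8.55 FPKM, down to ADCY10, between 0.0314 and 0.205 FPKM, and ADCY8 is the member whose group means stand farthest apart on this axis, with 4 of the 5 points of the rpFSH treatment group above every control.

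Neighbours in this order were compared within pigs on log2 (FPKM + 0.1) by two-sided exact sign-flip permutation tests over 10 pigs, with p adjusted by the Benjamini-Hochberg method over the 9 neighbour pairs. ADCY6 exceeded ADCY3 in 9 of 10 pigs (exact permutation test, adjusted p = 0.0117), and ADCY3 exceeded ADCY5 in 9 of 10 pigs (exact permutation test, adjusted p = 0.0132). The ADCY4 locus exceeded ADCY7, and ADCY7 exceeded ADCY8, each in 10 of 10 pigs (exact permutation test, adjusted p = 0.00879 for both, from the smallest p of 0.00195 that 10 pigs allow). The other neighbours did not differ beyond their spread, with adjusted p of 0.936 for ADCY5 and ADCY9, 0.397 for ADCY9 and ADCY2, 0.246 for ADCY2 and ADCY4, 0.113 for ADCY8 and ADCY1, and 0.870 for ADCY1 and ADCY10 (exact permutation tests).

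The position and make-up of the loci bear on these levels. On Sscrofa11.1, ADCY8 lies on the plus strand of chromosome 4 from 9645797 to 9871259, ADCY9 on the plus strand of chromosome 3 from 38103923 to 38302243, and ADCY3 on the plus strand of chromosome 3 from 113870270 to 113985479. ADCY5 lies on chromosome 13 from 136973000 to 137133977, ADCY7 on chromosome 6 from 34521504 to 34586381, ADCY2 on chromosome 16 from 74305442 to 74729884, ADCY1 on chromosome 18 from 50051364 to 50143549, and ADCY10 on chromosome 4 from 83105399 to 83204453. The ADCY6 locus, on chromosome 5 from 14768425 to 14846497, also carries the symbol of CCNT1, which codes for a cyclin of the elongation factor P-TEFb. The ADCY4 locus, on chromosome 7 from 74951105 to 74974201, also carries that of RIPK3, a kinase of programmed necrosis. In RefSeq annotation of the same build CCNT1 lies between 14768423 and 14808424 and RIPK3 between 74951145 and 74955255, both next to the cyclase, so the values of these 2 loci cannot be divided between cyclase and partner. With both loci left out, ADCY2 exceeded ADCY7 in 9 of 10 pigs (exact permutation test, adjusted p = 0.0228 over 7 pairs). The ADCY2 locus carries a further identifier, ENSSSCG00000033482.

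ADCY8, the calcium- and calmodulin-stimulated cyclase best known from neurons, was higher in the rpFSH treatment group, and its level was low in every pig. In the control group its FPKM was 0.115, 0.0594, 0.0510, 0.201 and 0.123 in controls 1 to 5, from 77, 44, 34, 150 and 94 counts. In the rpFSH treatment group its FPKM was 0.432, 0.197, 0.356, 0.269 and 0.226 in pigs 1 to 5, from 318, 148, 234, 189 and 159 counts. Of the 5 rpFSH pigs, 4 were above every control, and the groups overlapped by rpFSH 2 and control 4 alone. The group means were 0.110 ± 0.0603 and 0.296 ± 0.0969 FPKM (SD, n = 5 each), a ratio of 2.69. The log2 fold change fitted by edgeR, a count model with a quasi-likelihood test, was 1.49 with a SE of 0.406. This is the value that led to the choice of the family and has no test here.

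The values of ADCY8 without the libraries that stood apart come from the same pigs by which the family was chosen and are given as a description. Without controls 2 and 5 its log2 fold change was 1.35, and without the 3 pigs of highest luteal sum it was 1.18. When each pig was left out in turn it ranged from 1.32 to 1.83, the highest value being without control 4. The pigs of highest ciliated epithelium sum, controls 2 and 5 with 52.2 and 103 FPKM, had 0.0594 and 0.123 FPKM of ADCY8, within the range of the other controls. Over the 10 pigs ADCY8 had r = -0.53 and rho = -0.61 with the mean level of this list. Both ADCY8 and the list differ between the groups, and ADCY8 was chosen by its difference, so no p is given for these values and nothing is read from them. The r was -0.45 without controls 2 and 5 and -0.094 within the groups. In bulk tissue fewer cells of a type and less RNA per cell cannot be told apart, and the part of the cell make-up in the level of ADCY8 was not tested.

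A member was called when its unadjusted P in edgeR was under 0.05 and its log2 fold change was beyond 1 in size, the limits used in the study. Of the 10 members, 9 had a mean FPKM of at least 0.1 and were tested, and ADCY8 was the 1 member called, against 3.12% of the 15170 tested protein-coding loci called in either direction and 0.534% called as higher. The choice of the family fixed this count at 1 or more, and nothing is read from it. ADCY10, with 12 to 77 counts per pig, was below the limit on level and was not tested. After Benjamini-Hochberg adjustment 0 of the 15170 loci passed 0.05 in edgeR, where 717 (4.73%) did so before adjustment, and in DESeq2 86 (0.567%) passed after it. In FPKM the groups of all 10 members overlapped, and 0.626% of the tested loci had groups that did not. The median log2 fold change was 0.13 over the 9 tested members, 6 of them above 0, and -0.0093 over all tested loci, 7333 of them above 0. ADCY8 is among the 9 and was chosen by its high value, so nothing is read from this median or count. The summed FPKM of the family was 22.8 ± 2.39 in the controls and 23.4 ± 3.14 in the rpFSH pigs (SD, n = 5 each), with ranges of 19.9 to 25.3 and 18.1 to 26.1.

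**Figure D2:**
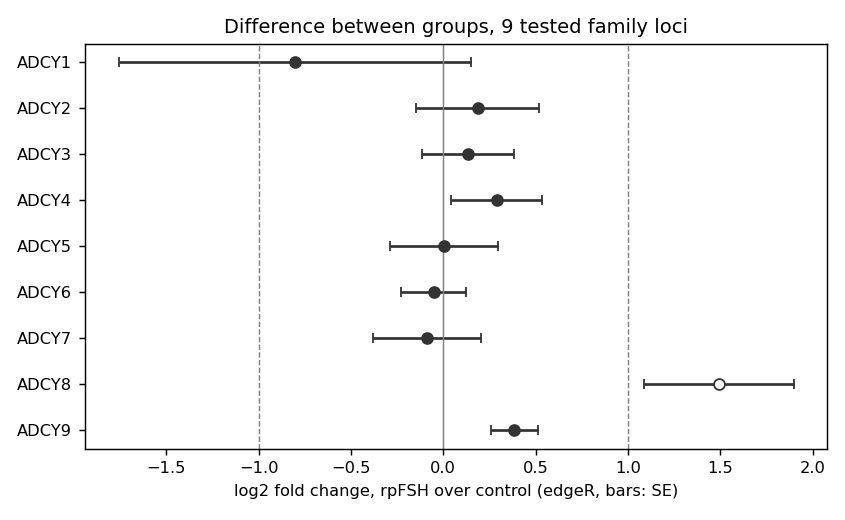
Log2 fold change of each tested adenylyl cyclase locus, rpFSH treatment group over control group, as fitted by edgeR on the counts, with bars of 1 SE and dashed lines at the fold limits of -1 and 1. ADCY8 (open circle, 1.49, shown as a description) lies beyond the limit, ADCY9 is at 0.38 with a short bar, and ADCY1 has the widest bar, with an SE of 0.95.

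Among the other calcium-stimulated members, ADCY3 did not pass the test and the value of ADCY1 was decided by 1 pig. ADCY3, a cyclase known from olfactory neurons and cilia, was 4.04 ± 1.11 FPKM in the controls and 4.24 ± 1.13 FPKM in the rpFSH pigs (SD, n = 5 each), with an edgeR log2 fold change of 0.13, a SE of 0.25 and an adjusted p of 1.00. It was -0.11 without controls 2 and 5 and 0.059 without the 3 pigs of highest luteal sum. The FPKM of ADCY1 was 0.0704, 0.0258, 0.0408, 0.0226 and 0.538 in controls 1 to 5, and 0.0128, 0.0574, 0.112, 0.147 and 0.0347 in rpFSH pigs 1 to 5. Control 5 alone, with 162 counts against 4 to 41 in the other 9 pigs, stood above the rest. The log2 fold change of ADCY1 was -0.80 with a SE of 0.95 (edgeR, adjusted p = 1.00) and turned to 0.90 without control 5 and to 0.78 without controls 2 and 5, and it was -1.16 without the 3 pigs of highest luteal sum.

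The calcium-inhibited members did not pass the test. ADCY5 ranged from 2.03 to 4.48 FPKM in the controls and from 1.71 to 3.90 FPKM in the rpFSH pigs, and its edgeR log2 fold change was 0.0028 with a SE of 0.29 (adjusted p = 1.00). The ADCY6 locus, which includes CCNT1, ranged from 5.97 to 8.55 FPKM and from 5.22 to 8.13 FPKM, with a log2 fold change of -0.053 and a SE of 0.18 (edgeR, adjusted p = 1.00). Both changed sign under some of the settings tried. Without controls 2 and 5 ADCY5 was at -0.27 and ADCY6 at -0.15, and without the 3 pigs of highest luteal sum they were at 0.028 and 0.055.

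The members stimulated by beta and gamma subunits did not pass the test either. ADCY2 was between 1.03 FPKM in control 2 and 3.85 FPKM in control 4, with the rpFSH pigs from 1.91 to 3.82 FPKM, and had a log2 fold change of 0.19 with a SE of 0.33 (edgeR, adjusted p = 1.00). ADCY7, known from leukocytes, was between 1.08 and 1.80 FPKM in the controls and between 0.615 and 1.85 FPKM in the rpFSH pigs, with a log2 fold change of -0.088 and a SE of 0.29 (edgeR, adjusted p = 1.00). Without controls 2 and 5 ADCY2 was at -0.11 and ADCY7 at 0.22 on the log2 scale, and without the 3 pigs of highest luteal sum they were at 0.016 and 0.16. The ADCY4 locus, which includes RIPK3, was 1.33, 2.89, 1.66, 1.33 and 1.98 FPKM in controls 1 to 5 and 1.91, 1.43, 2.09, 2.80 and 2.48 FPKM in rpFSH pigs 1 to 5. The ranges overlapped and control 2 was the highest of all. Its log2 fold change was 0.29 with a SE of 0.25 (edgeR, adjusted p = 1.00). Without control 2 it was 0.52 and without controls 2 and 5 it was 0.64 (edgeR, adjusted p = 0.695), both with an unadjusted P under 0.05 and under the fold limit. Without the 3 pigs of highest luteal sum it was 0.43, with a P above 0.05.

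ADCY9, a broadly expressed cyclase, had the smallest spread between pigs of the family and a group difference that was small beside that of ADCY8 and present in every setting. Its FPKM was 2.37, 2.81, 2.83, 2.61 and 2.71 in controls 1 to 5, from 7954 to 10327 counts. In rpFSH pigs 1 to 5 it was 3.01, 2.83, 3.92, 3.34 and 3.47, from 10667 to 12883 counts. Of these, 4 were above every control and rpFSH 2 was level with control 3. As CPM, the count scaled to the total of the library, all rpFSH pigs, at 143 to 199, were above all control pigs, at 118 to 142, which held for 0.125% of the tested loci in this direction. The means were 2.67 ± 0.187 and 3.31 ± 0.423 FPKM (SD, n = 5 each), a ratio of 1.24, and the log2 fold change was 0.38 with a SE of 0.127 (edgeR, adjusted p = 0.981).

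The unadjusted P of ADCY9 was under 0.05 in this fit and in all 24 other settings tried, and its log2 fold change ranged from 0.30 to 0.46. In edgeR, 1.52% of the tested loci were higher with such a P, and the lowest adjusted p of ADCY9 in any setting was 0.189. ADCY9 was called in 0 of these settings, since its fold change was under the limit. Without controls 2 and 5 the log2 fold change of ADCY9 was 0.42, and without the 3 pigs of highest luteal sum it was 0.46.

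**Figure D3:**
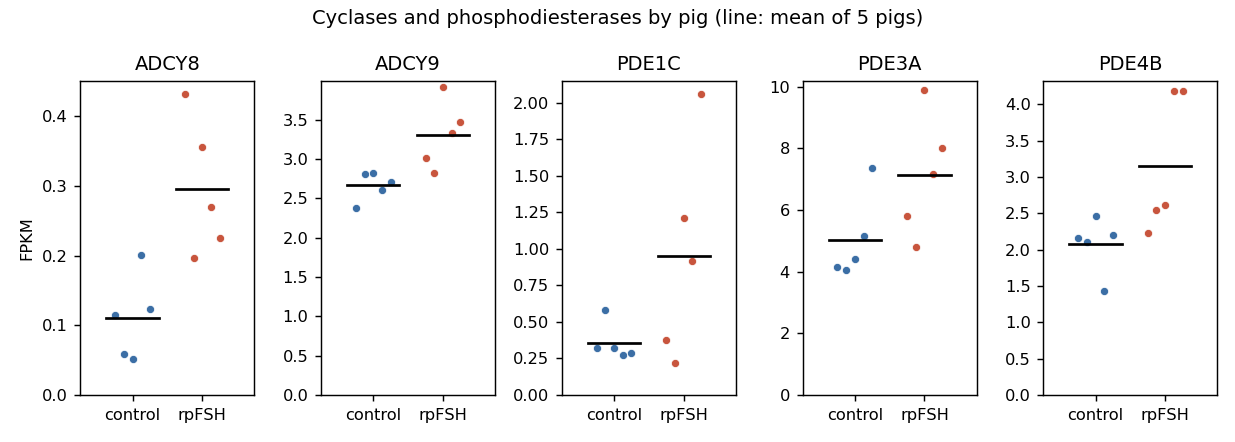
FPKM by pig of ADCY8, ADCY9 and the phosphodiesterases PDE1C, PDE3A and PDE4B in the control group (blue) and the rpFSH treatment group (red), with black lines for the means of 5 pigs and each axis starting at 0. ADCY9 shows a narrow control group between 2.37 and 2.83 FPKM, and PDE1C shows 3 of 5 rpFSH pigs above all controls and 1 below them.

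The span of ADCY9 holds other loci that the assembly kept apart. Inside it lie 6 unannotated loci, 2 on the same strand and 4 on the opposite strand, and all of them carry the name of ADCY9 in the table. Their counts came to 12127 to 20362 per pig, or 54.0 to 69.7% of all counts in the span. The log2 ratios of their group means ran from -0.21 to 0.16, and in an edgeR fit over all 36339 loci of sufficient level 0 of the 6 were called or had a P under 0.05, against 3.59% of those loci called. Whether counting used the strand is not stated, so reads of ADCY9 and of the opposite-strand loci cannot be told apart.

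**Figure D4:**
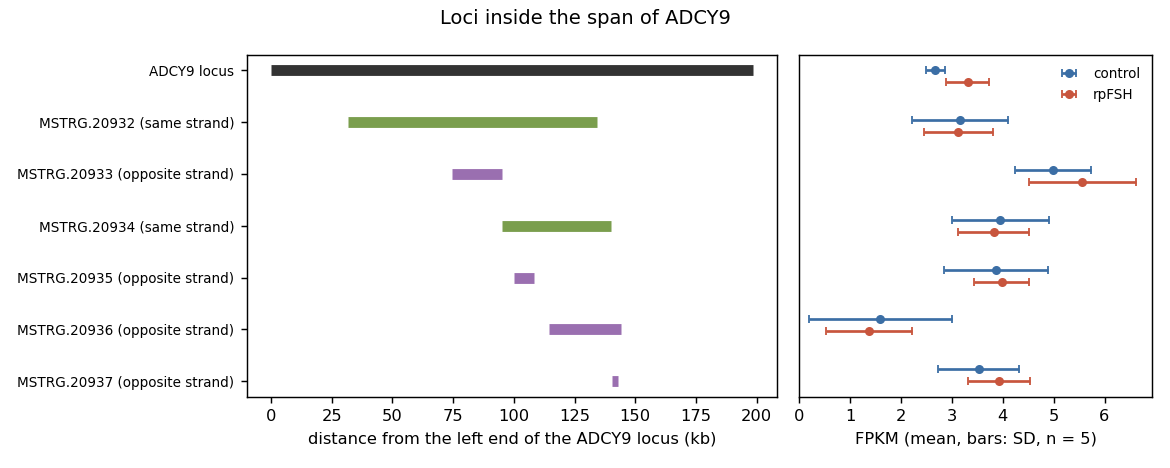
Left, the ADCY9 locus (black) and the unannotated loci within it on the same strand (green) and the opposite strand (purple), by distance in kb from the left end of the locus. Right, their FPKM as mean and SD of 5 pigs for the control group (blue) and the rpFSH treatment group (red), where the bars of the 6 inner loci overlap between the groups and ADCY9 itself is at 2.67 and 3.31 FPKM.

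For the other members, 4 unannotated loci overlapped ADCY3 (18.2 to 25.3% of the counts, with 0 called in that fit) and 1 lay opposite the ADCY6 locus. The latter, MSTRG.24762, was 0.225 to 2.47 FPKM in the controls and 0.207 to 0.351 FPKM in the rpFSH pigs, with a log2 fold change of -1.55 and a SE of 0.62 (edgeR, adjusted p = 0.848). It passed the limits above through control 1, the pig at 2.47 FPKM, without which the log2 fold change was -0.55 (edgeR, adjusted p = 1.00). It held 0.769 to 5.61% of the counts at ADCY6. No unannotated locus overlapped ADCY1, ADCY2, ADCY4, ADCY5, ADCY7, ADCY8 or ADCY10.

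The coding loci on either side of ADCY8 were EFR3A, 508507 bp before it, and ASAP1, 231933 bp after it. EFR3A, which helps to place a lipid kinase at the plasma membrane, had a log2 fold change of -0.069 (edgeR, adjusted p = 1.00). ASAP1, an activating protein for ARF GTPases, was 2.77 to 3.25 FPKM in the controls and 3.51 to 4.09 FPKM in the rpFSH pigs. The groups of ASAP1 did not overlap, as for 0.0791% of the tested loci in this direction, and the log2 fold change was 0.45 with a SE of 0.107 (edgeR, adjusted p = 0.981), with an unadjusted P under 0.05.

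The loci most like ADCY8 over the 10 pigs, taken from the 11315 protein-coding loci at 1 FPKM or more on average, are given as a description, since ADCY8 had been chosen for its difference between these groups. They were LRP1 (r = 0.90), the endocytic receptor for many ligands, MRPL52 (r = 0.89), a protein of the mitochondrial ribosome, ENSSSCG00000033485 (r = 0.87), ENSSSCG00000040403 (r = 0.86), described in the table as Nanog homeobox, and SMIM20 (r = 0.86), a small membrane protein, all on log2 (FPKM + 0.1). Spearman's rho with ADCY8 was between 0.84 and 0.94 for these loci. ASAP1, its neighbour, ranked 7 with r = 0.84. Within the groups r with ADCY8 was 0.75 for LRP1, 0.86 for MRPL52, 0.75 for ENSSSCG00000033485, 0.57 for ENSSSCG00000040403 and 0.86 for SMIM20. The locus described as Nanog homeobox was 1.37 to 2.61 FPKM in the controls and 2.92 to 4.70 FPKM in the rpFSH pigs. Its groups did not overlap, as for 0.0791% of the tested loci in this direction. Picking loci by likeness to ADCY8 favours such a separation in advance, and nothing is read from it.

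Between pigs, the members varied to unequal degrees. The coefficient of variation of the FPKM over 10 pigs was 15.3% for ADCY9 and 17.2% for ADCY6, between 25.6 and 33.2% for ADCY2, ADCY3, ADCY4, ADCY5 and ADCY7, and 59.3, 61.2 and 149% for the low members ADCY10, ADCY8 and ADCY1. These values include any difference between the groups. Of the 500 tested loci nearest in mean FPKM, 21.4% varied less than ADCY9, 35.6% less than ADCY6, 35.0% less than ADCY8 and 83.4% less than ADCY1. For ADCY2, ADCY3, ADCY4, ADCY5 and ADCY7 this share was 40.2 to 66.4%. Over the 36 pairs of tested members, 18 had a positive Pearson's r on log2 (FPKM + 0.1) and 0 had a permutation p under 0.05 after adjustment over the pairs. Pairs with ADCY8, chosen by its difference, are among the 36 and in their adjustment, and nothing is read from those pairs. The 3 pairs with an unadjusted permutation p under 0.05 were ADCY3 with ADCY5, ADCY2 with ADCY3, and ADCY4 with ADCY6. ADCY3 and ADCY5 had r = 0.73 over 10 pigs (two-sided permutation p = 0.0190, adjusted 0.343) and rho = 0.60 (permutation p = 0.0747, adjusted 0.476), and r = 0.45 without the 2 pigs farthest from the median of ADCY3. ADCY2 and ADCY3 had r = 0.70 (permutation p = 0.0168, adjusted 0.343) and rho = 0.59 (permutation p = 0.0793, adjusted 0.476), and r = 0.81 without the 2 farthest pigs. ADCY4 and ADCY6, both loci shared with another gene, ran in opposite directions with r = -0.68 (permutation p = 0.0345, adjusted 0.373) and rho = -0.67 (permutation p = 0.0388, adjusted 0.476), and r = -0.41 without control 1 and rpFSH 2.

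The members were also set against the mean log2 (FPKM + 0.1) of the 10 marker lists, in 90 relations, of which 0 had an adjusted permutation p under 0.05. Relations of ADCY8 are among the 90 and in their adjustment, and nothing is read from those of ADCY8. The closest of the 90 was ADCY7 with the leukocyte list, with r = 0.86 over 10 pigs (permutation p = 0.00124, adjusted 0.0657) and rho = 0.81 (permutation p = 0.00733, adjusted 0.220). It was 0.88 without the 2 farthest pigs and 0.86 within the groups. In this list CD68 was read from a locus that also carries EIF4A1, at a mean of 29.8 FPKM. In the granulosa list AMH and GATA4 were read from loci that also carry SF3A2 and NEIL2. The ADCY4 locus followed with the endothelial list, with r = 0.83 (permutation p = 0.00146, adjusted 0.0657) and rho = 0.87 (permutation p = 0.00229, adjusted 0.206), and r = 0.82 both without the 2 farthest pigs and within the groups. ADCY2 went with the granulosa list at r = 0.80 (permutation p = 0.00344, adjusted 0.0774) and rho = 0.73 (permutation p = 0.0201, adjusted 0.291), which fell to r = 0.55 without rpFSH 3 and control 2. ADCY7 ran the other way with the granulosa list, with r = -0.81 (permutation p = 0.00310, adjusted 0.0774) and rho = -0.83 (permutation p = 0.00474, adjusted 0.213), and r = -0.69 without the same 2 pigs. ADCY1 with the smooth muscle list had r = 0.81 (permutation p = 0.00723, adjusted 0.130) and rho = 0.72 (permutation p = 0.0231, adjusted 0.291), and r = 0.46 without controls 2 and 5. Leaving out rpFSH 1 brought 4 relations under an adjusted p of 0.05, these being ADCY2 and ADCY7 with the granulosa list, ADCY4 with the endothelial list and ADCY7 with the theca list, and leaving out control 5 brought in 1, ADCY2 with the stromal list.

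**Figure D5:**
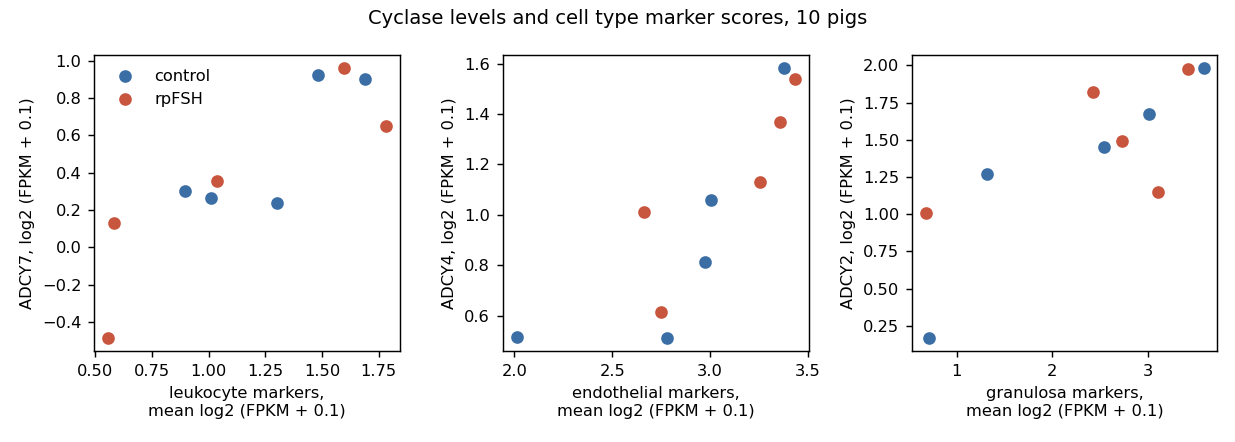
Level of ADCY7, the ADCY4 locus and ADCY2 on the log2 (FPKM + 0.1) scale against the mean of the leukocyte, endothelial and granulosa marker lists on the same scale, 1 point per pig, in the control group (blue) and the rpFSH treatment group (red). Points of both groups lie along each trend, with r = 0.86, 0.83 and 0.80 over 10 pigs and adjusted p of 0.0657, 0.0657 and 0.0774.

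Around the cyclases, the genes of the cAMP pathway were counted in 6 lists of 105 genes, of which 104 were found and 100 tested. With the limits above 1 gene was called as higher and 0 as lower, against 0.534 and 2.58% of all tested loci. A P under 0.05 at any fold change was found for 4 higher and 0 lower genes, against 1.52 and 3.21% of all tested loci, and 0 had an adjusted p under 0.05 in edgeR. The median log2 fold change of the 100 genes was -0.0095.

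Upstream of the cyclases, 0 of 18 tested receptors coupled to stimulatory G proteins and 0 of 12 coupled to inhibitory G proteins were called. FSHR, the receptor for the injected hormone, was 7.02, 0.375, 5.97, 4.36 and 3.05 FPKM in controls 1 to 5 and 2.29, 6.36, 1.33, 1.36 and 4.13 FPKM in rpFSH pigs 1 to 5. The groups overlapped, control 2 was the lowest, and the log2 fold change was -0.35 with a SE of 0.68 (edgeR, adjusted p = 1.00). This value of FSHR depended on single pigs, from -0.081 without control 1 to -0.82 without rpFSH 2, and was -0.82 without controls 2 and 5. The receptors of highest level were CALCRL, which pairs with RAMP proteins to bind CGRP and adrenomedullin, at a mean of 9.71 FPKM, and S1PR1, the receptor for sphingosine 1-phosphate, at 11.8 FPKM, with log2 fold changes of 0.26 and -0.055. LPAR1, the receptor for lysophosphatidic acid, was at 2.98 FPKM with a log2 fold change of 0.16.

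Of the 16 tested G protein genes 0 were called. GNAS, which codes for the stimulatory alpha subunit, was 30.2 to 42.3 FPKM in the controls and 30.0 to 34.9 FPKM in the rpFSH pigs, with a log2 fold change of -0.087 and a SE of 0.13 (edgeR, adjusted p = 1.00). GNG11, a gamma subunit, had a mean of 82.7 FPKM and a log2 fold change of -0.0073. Among the 18 regulators of cyclases, such as calmodulins and anchoring proteins, 0 were called, with CALM2 at -0.23 on the log2 scale and a P above 0.05. CALM2 was 70.8 to 86.4 FPKM in the controls and 52.7 to 75.4 FPKM in the rpFSH pigs, with 4 of 5 rpFSH pigs below every control. The P of CALM2 was under 0.05 with DESeq2, voom or a mean FPKM of at least 1. It was also under 0.05 without rpFSH 1 and without the 3 pigs of highest luteal sum. In this list ORAI1, the pore of store-operated calcium entry, had a P under 0.05 without reaching the fold limit. It was 1.54 to 4.29 FPKM in the controls and 3.98 to 5.01 FPKM in the rpFSH pigs, with 4 of 5 rpFSH pigs above every control and a log2 fold change of 0.62 with a SE of 0.26 (edgeR, adjusted p = 0.997). The P of ORAI1 was under 0.05 in 16 of 24 other settings and above it without control 3 or 4 or rpFSH 2, 3 or 4, with library totals, with the replicate number as a block, and without the 3 pigs of highest luteal sum, where the log2 fold change was 0.43. It was 0.53 without controls 2 and 5.

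Downstream, 0 of 20 effectors of cAMP were called. The regulatory subunits of protein kinase A with the highest levels, PRKAR1A and PRKAR2B, had means of 25.2 and 24.5 FPKM and log2 fold changes of -0.29 and 0.38 (edgeR, adjusted p = 1.00 for both). The phosphodiesterases, which remove the product of the cyclases, held the 1 called gene of the pathway, and 11 of the 16 tested had a log2 fold change above 0, with a median of 0.095.

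PDE1C, a phosphodiesterase that calcium and calmodulin stimulate, was 0.324, 0.584, 0.319, 0.271 and 0.289 FPKM in controls 1 to 5 and 0.374, 0.216, 1.21, 0.914 and 2.06 FPKM in rpFSH pigs 1 to 5. The rpFSH pigs 3, 4 and 5 were above every control and rpFSH 2 was below all of them. The log2 fold change of PDE1C was 1.48 with a SE of 0.547 (edgeR, adjusted p = 0.981). Without rpFSH 5, the highest pig, it was 0.99 with a P above 0.05 and PDE1C was not called, and it was 1.71 without controls 2 and 5 and 2.02 without the 3 pigs of highest luteal sum. The P of PDE1C was under 0.05 in 19 of 23 other settings. It was above 0.05 without rpFSH 5, with limma on either scale and with the replicate number as a block.

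PDE3A, the cGMP-inhibited phosphodiesterase that also acts in oocytes, and PDE4B, a cAMP-specific one, had a P under 0.05 and a smaller fold change. PDE3A was 4.03 to 7.36 FPKM in the controls and 4.81 to 9.89 FPKM in the rpFSH pigs, with a log2 fold change of 0.59 and a SE of 0.23 (edgeR, adjusted p = 0.981). PDE4B was 1.43 to 2.46 FPKM and 2.23 to 4.18 FPKM, with 4 of 5 rpFSH pigs above every control and a log2 fold change of 0.67 with a SE of 0.22 (edgeR, adjusted p = 0.981). The P of PDE3A was under 0.05 in 17 of 24 other settings and above it without control 1, 2 or 3 or rpFSH 3 or 5, with limma on log2 (FPKM + 1) and without the 3 pigs of highest luteal sum, and that of PDE4B in 23 of 24, the exception being the replicate block. Without controls 2 and 5 PDE3A was at 0.72 and PDE4B at 0.71 on the log2 scale, and without the 3 pigs of highest luteal sum they were at 0.62 and 0.68. PDE8A, the high-affinity enzyme with the highest mean level of the list (6.43 FPKM), had a log2 fold change of 0.37 (edgeR, adjusted p = 1.00), which was 0.13 without rpFSH 1, its highest pig, and 0.55 without control 2.

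By the annotation in the table, the loci of the members share most of their KEGG pathways and few of their GO terms. All 10 were placed in the KEGG pathways of cAMP signaling, purine metabolism, thermogenesis, circadian entrainment and apelin signaling. A further 40 pathways held the membrane-bound members and not ADCY10, among them ovarian steroidogenesis, oocyte meiosis, progesterone-mediated oocyte maturation, GnRH signaling and estrogen signaling. The calcium signaling pathway held 7 members, without ADCY5, ADCY6 and ADCY10. Of the GO terms, 6 held all 10 members, among them adenylate cyclase activity and cAMP biosynthetic process, and 101 held 1 member each. The latter include terms of the partner genes. Examples are necroptotic process at the ADCY4 locus, shared with RIPK3, and the cyclin/CDK elongation factor complex at the ADCY6 locus, shared with CCNT1. The number of terms held by 1 member is therefore not one of the cyclases alone. These assignments come from the annotation and not from the levels measured here.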

How the data were processed

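The authors deposited 1 table with a whole-number count and an FPKM for each locus and each of the 10 pigs. According to the methods, the authors trimmed reads with Cutadapt, aligned them to the pig genome and estimated FPKM with StringTie and Ballgown, and the submitters' processing notes name HISAT2 2.0, StringTie 1.3.0, Bowtie 0.12.2 and Sscrofa11.1. How the deposited counts were made is not stated. Libraries were compared in all pairs and at least 67.9% of loci differed by more than 2 Poisson SD, so each was kept as 1 sample.

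Groups were compared with edgeR 4.0.16 (TMM, quasi-likelihood, two-sided) in R 4.3.3 on the counts of protein-coding loci averaging 0.1 FPKM or more. A difference was called at an unadjusted P under 0.05 and a log2 fold change beyond 1, with Benjamini-Hochberg adjustment over all 15170 loci. The SE is the log2 fold change over the root of its F. The study used Ballgown on FPKM with these limits. Alternatives were DESeq2 1.42.0, limma 3.58.1 on log2 (FPKM + 1) with the ratio of means, or on log2 (FPKM + 0.1), voom with sample weights, other scalings and filters, all loci of the table, a block for the replicate number, and fewer pigs. Correlations used 100000 permutations (seed 1) in Python 3.11.15 with scipy 1.17.1. In simulated data for this comparison, with 200 of 15170 genes changed by 2 on the log2 scale, edgeR called 95% of them, and 4.73% of the unchanged genes had P under 0.05. The changed genes were drawn from loci above a limit on counts, and the simulation held no shifts of cell make-up between pigs. It does not show how often smaller changes or low loci would be found.

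The members, the lists of pathway and marker genes and the tests were chosen with earlier results of these data known. Named genes were the members, the called genes and the 2 of highest FPKM in each pathway list (1 of them is not reported here), the 5 loci most like ADCY8 and the neighbours of ADCY8. ORAI1, PDE3A, PDE4B, MSTRG.24762 and the genes called under alternatives alone were named after their values were seen. GNG5, FOXL2, DAZL, EGFL7, S100B, PIFO and PAX8 were not matched by symbol. Gene positions of RefSeq were matched for 10 of 10 members. Nothing says that the pigs of a group differed in litter or pen, and p-values measure the spread between these 10 samples. Total counts limit the precision of low members: 3 counts served as the limit for detection, which covers counting error only.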

Additional observations from a re-analysis of the deposited data

Results flagged for a closer look

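Single pigs far from the other 4 of their group were found in 4 of 52 groups of values examined (26 genes in 2 groups), where chance gives about 1 in 20. ADCY1 was 0.538 FPKM in control 5 and 0.0704 FPKM in the next control, and control 5 also had the highest smooth muscle sum, 2194 FPKM. The part of this in the level of ADCY1 was not tested. PDE8A was 11.9 FPKM in rpFSH 1 against 6.58 FPKM in the next rpFSH pig, and control 2 was at 8.27 FPKM. PDE1C was 0.584 FPKM in control 2 against 0.324 FPKM in the next control, so the gap lies on the side that makes the groups more alike. ASAP1 was 3.25 FPKM in control 4 against 2.90 FPKM in the next control, and still below every rpFSH pig.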

How the results depend on the processing

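With a mean FPKM of at least 1, where ADCY8 was not tested, and with limma on log2 (FPKM + 0.1), which gave ADCY8 0.93, 0 members were called. Nothing is read from the calls of ADCY8, which chose the family, and the other members were called in 0 settings. Of the 9 neighbour pairs in the order of levels 4 passed, and 3 to 5 did under the alternatives (3 without control 1, 3 or 4, and 5 without control 2), while the order itself changed with medians or without control 1, 3, 4 or 5. Member and marker relations passing the adjustment numbered 0 to 4 with 1 pig left out. Pathway genes called, 1 in the reported fit, were 0 with a mean FPKM of at least 1 or with limma on either scale, 2 without a filter (GPR12 added) and 2 with DESeq2, with all loci, or without the 3 luteal-high pigs (ADCYAP1R1 added each time), 6 with voom, 8 without controls 2 and 5 (DRD2, PTGIR, PDE4D, PKIG, PDE1C, GNG2 and RXFP2 higher, ADCYAP1R1 lower), and 0 (without rpFSH 5) to 5 (without control 5, with PTGIR, VIPR2 and RXFP2 higher and PTGER3 lower beside PDE1C), 2 without control 2 or control 4 and 3 without rpFSH 2, with 1 pig left out. The replicate numbers do not pair the pigs, since same-numbered pigs had correlations of -0.27 to -0.029 and none was closest to its own number. With the replicate number as a block, 1 member and 0 pathway genes were called, and 194 of all tested loci against 473. Over all tested loci 172 were called with limma on log2 (FPKM + 1), 188 on log2 (FPKM + 0.1), 146 with a mean FPKM of at least 1, 1305 of 36339 with all loci, 177 without the 3 luteal-high pigs and 423 without controls 2 and 5, of which 306 were higher, against 81 higher and 392 lower in the reported fit, and voom called 204 higher and 149 lower.

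Several log2 fold changes, none of them called, changed sign, and the cause was not tested. Without controls 2 and 5, ADCY1 was 0.78, ADCY2 -0.11, ADCY3 -0.11, ADCY5 -0.27, ADCY7 0.22 and GNG11 0.072. With voom, ADCY1 was 0.37, ADCY5 -0.14, ADCY7 0.14 and GNG11 0.020. With the replicate block ADCY1 was 0.048 and GNG11 0.026. Without the 3 luteal-high pigs, an alternative added after seeing the data like the one without control 1 for MSTRG.24762, ADCY6 was 0.055, ADCY7 0.16, S1PR1 0.21 and LPAR1 -0.0035. ADCY5 was -0.0006 with upper-quartile scaling, -0.018 with library totals, -0.064 and -0.053 with limma, and -0.034 with all loci. With 1 pig left out, the ranges that crossed 0 were -1.22 to 0.90 for ADCY1, -0.0074 to 0.38 for ADCY2, -0.13 to 0.19 for ADCY5, -0.19 to 0.039 for ADCY6, -0.30 to 0.086 for ADCY7, -0.14 to 0.18 for GNG11, -0.025 to 0.28 for LPAR1, -0.087 to 0.72 for PRKAR2B and -0.34 to 0.25 for S1PR1. Depth limits ADCY1, ADCY8 and ADCY10, whose lowest pigs had 4, 34 and 12 counts.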
